A study of Mus musculus with 6 samples.

Results

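The enzymes that make serine and pass its carbon to folate were described in mouse brown adipose tissue, a heat-producing fat rich in mitochondria. They were chosen by name as members of the textbook pathway. The rule used no measured value, but earlier results of these data were known when they were chosen. Phgdh, Psat1 and Psph belong to serine synthesis, and Shmt1 and Mthfd1 to the cytosolic folate cycle. Shmt2, Mthfd2, Mthfd2l, Mthfd1l and Aldh1l2 belong to the mitochondrial folate cycle. All 10 were among the 24062 gene symbols counted, and all 10 passed the filter on low counts that left 13300 genes for testing. The study compared RNA sequencing of this tissue from 3 male C57BL/6 mice labelled FAM195A knockout with 3 male C57BL/6 mice labelled FAM195A heterozygous, all 12 weeks old. FAM195A is the stress granule protein the series is about, and the heterozygous mice carry a disrupted copy too, since no wild-type library was included. The sources used here give neither the housing temperature nor how the alleles were made.

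Serine is made from phosphoglycerate, an intermediate of glycolysis, and serine hydroxymethyltransferases split it into glycine and a one-carbon unit bound to tetrahydrofolate. In mitochondria that unit is oxidised to formyl-tetrahydrofolate and released as formate, which the cytosolic cycle takes up again to build purines, thymidylate and methyl groups. The mitochondrial enzymes are abundant in embryonic and dividing cells, and several of the genes are known targets of ATF4, the transcription factor of the integrated stress response.

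Of the 10 enzymes, 0 passed the test between the genotypes (edgeR quasi-likelihood, Benjamini-Hochberg adjusted p under 0.05), against 0.586% of all tested genes. Mthfd2 and Shmt2 had the largest differences, in opposite directions. Mthfd2 averaged 8.34 ± 5.13 CPM, reads scaled to the TMM-adjusted gene total of each library, in the knockout-labelled libraries and 2.80 ± 0.944 CPM in the heterozygous-labelled ones (SD, n = 3 each). Shmt2 averaged 15.7 ± 1.14 CPM in the knockout-labelled libraries and 23.8 ± 1.40 CPM in the heterozygous-labelled ones (SD, n = 3 each). These were the 2 enzymes with an unadjusted edgeR p under 0.05, a mark that 12.1% of all tested genes passed. They were also the 2 whose groups did not overlap, which held for 18% of all tested genes. DESeq2, which called 5.78% of all genes, called both, and limma-voom, which called 1.46% of all genes, called 0 of the 10.

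The transcript counts of Fam195a itself, also named Mcrip2, did not separate the groups. Fam195a had 50.5, 82.0 and 81.3 CPM in the knockout-labelled libraries, against 68.9, 70.5 and 103 CPM in the heterozygous-labelled ones. The difference was -0.18 on the log2 scale (SE 0.241, edgeR adjusted p = 0.896), so the libraries are called here by their labels, and every direction below rests on those labels. The labels do not say which part of the gene was disrupted, so its transcript level does not check them.

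The libraries held 18781401 to 25084627 reads counted in genes, which were 51.0% to 58.3% of the column totals in the knockout-labelled libraries and 43.9% to 48.4% in the heterozygous-labelled ones. Skeletal muscle markers were lower in all 22 of 22 genes in the knockout-labelled libraries, each at an unadjusted edgeR p under 0.05 but with 0 called, a median log2 difference of -2.22 and no marker at 0 reads. They summed to 4138 to 7462 CPM in the knockout-labelled libraries and to 11990 to 35040 CPM in the heterozygous-labelled ones. Brown adipocyte markers summed to 20530 to 25250 CPM in the knockout-labelled libraries and 19820 to 21180 CPM in the heterozygous-labelled ones, but Fabp4 alone had 9137 to 12350 CPM of this. Ucp1 had 4388, 5690 and 1646 CPM in the knockout-labelled libraries, against 4895, 5288 and 2962 CPM in the heterozygous-labelled ones. Brown adipocyte RNA was thus present in every library, with Ucp1 lowest in library 3 of each group. Of the 14 brown adipocyte markers, 5 fitted differences were above 0 and 9 below, with a median log2 difference of -0.105, and 1 was called. Among those below, Ucp1 was at -0.16, Dio2 at -0.70 and Ppargc1a at -0.79 (edgeR adjusted p = 0.958, 0.835 and 0.805). The called marker, Elovl3, which lengthens fatty acids, had 182, 161 and 216 CPM in the knockout-labelled libraries, against 86.0, 98.8 and 88.3 CPM in the heterozygous-labelled ones (log2 1.03, SE 0.15, edgeR adjusted p = 0.0418). Its call was not made in the fit with a muscle score or in those without knockout 1, knockout 2 or heterozygous 2, each of which called 0 genes. Other fits kept only part of the 78 reported calls, as few as 7 without heterozygous 3. Whether Elovl3 was among those kept is not given here. In bulk tissue, fewer cells of a type and less RNA per cell cannot be told apart.

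MTHFD2 is the mitochondrial enzyme that oxidises methylene-tetrahydrofolate to formyl-tetrahydrofolate, and SHMT2 is the mitochondrial enzyme that feeds it by splitting serine. The 250 bases before the RefSeq start of each gene are shown because these genes carried the opposite differences. The sequences are from RefSeq on GRCm38.p6, read 5′ to 3′ on the strand of the gene, which is the minus strand for both. For Mthfd2 the window is chr6:83317605-83317854, and the capitals mark CCAAT on either strand. The GENCODE span of Mthfd2 given with its values begins further upstream, with a longer transcript, so this window lies inside that span. For Shmt2 it is chr10:127522445-127522694, and the capitals mark a palindromic stretch that holds GCGCATGC on both strands.
Mthfd2: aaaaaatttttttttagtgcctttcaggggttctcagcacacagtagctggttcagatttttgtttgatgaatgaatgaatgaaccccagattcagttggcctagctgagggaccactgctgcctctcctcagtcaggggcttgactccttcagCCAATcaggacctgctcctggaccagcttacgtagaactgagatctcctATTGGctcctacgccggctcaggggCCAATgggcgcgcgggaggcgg
Shmt2: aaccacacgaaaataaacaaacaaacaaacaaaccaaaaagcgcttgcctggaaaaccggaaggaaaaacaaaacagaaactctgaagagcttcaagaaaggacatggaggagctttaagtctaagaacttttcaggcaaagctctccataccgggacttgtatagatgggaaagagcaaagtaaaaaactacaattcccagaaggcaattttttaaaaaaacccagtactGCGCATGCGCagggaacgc

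These windows were searched, with 50 further bases after the start, for 5 motifs on both strands in the 9 enzymes that had a window. CCAAT and GCGCATGC were added after the windows were read, so their presence in these enzymes was known beforehand. Their shares are a description only and test nothing. CCAAT, the letters read by the factor NF-Y, lay in 6 of the 9 enzymes. Counted by window, it lay in 6 of their 10 windows and in 37.4% of all 32851 promoter windows. In Mthfd2 it occurred at 96 to 92, 47 to 43 and 22 to 18 bases before the start, the middle match on the opposite strand. GCGCATGC, the core read by NRF1, was found in Shmt2 alone of the 9 and in 2.71% of all windows. TGATGNAA, the core of the element that ATF4 binds, was in 0 of the 9 and in 3.97% of all windows. CACGTG was in 0 of the 9 and 7.15% of all windows, and TNAAGGTCA in 0 of the 9 and 1.28% of all windows. Each absence says only that these letters are not in these windows.

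**Figure D1:**
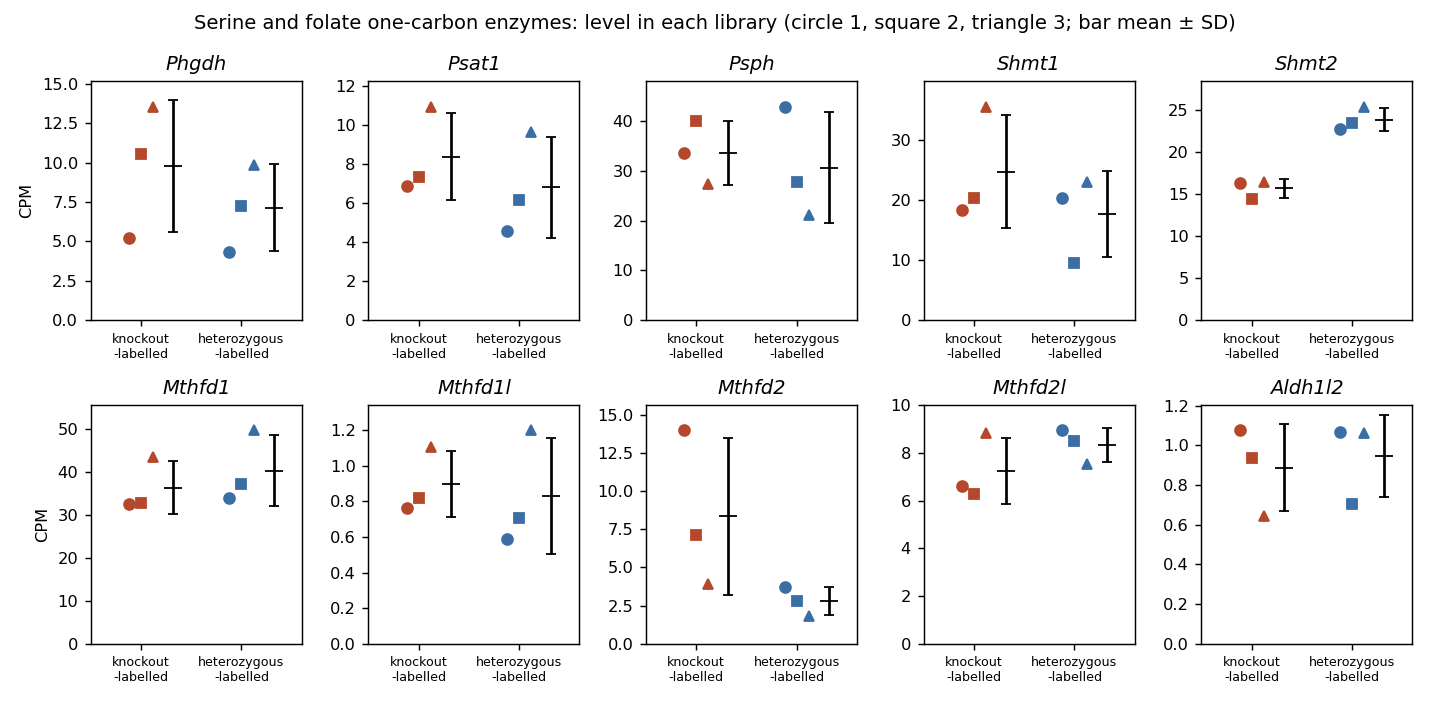
Level of each of the 10 enzymes in CPM (vertical axis, starting at 0), with the knockout-labelled libraries on the left and the heterozygous-labelled libraries on the right of each panel; circles, squares and triangles are libraries 1, 2 and 3, and bars are the mean ± SD. The groups do not overlap for Mthfd2, with knockout-labelled libraries at 3.92 to 14.0 CPM, and for Shmt2, with knockout-labelled libraries at 14.35 to 16.4 CPM.

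In the mitochondrial arm, Mthfd2 (chromosome 6, 83305691 to 83325908, minus strand, GRCm38) had 14.0, 7.14 and 3.92 CPM in the knockout-labelled libraries, against 3.73, 2.82 and 1.845 CPM in the heterozygous-labelled ones. Every knockout-labelled library lay above every heterozygous-labelled one, but knockout 1 alone was far above the rest. The nearest libraries were knockout 3, with 85 reads and an exact Poisson 95% interval of 3.13 to 4.85 CPM, and heterozygous 1, with 70 reads and an interval of 2.91 to 4.72 CPM. Those intervals cover counting error only and overlap, so the order of these 2 libraries is within counting error. The fitted difference was 1.58 on the log2 scale (SE 0.491, 95% interval 0.42 to 2.73), a fold of 2.98 with an interval of 1.34 to 6.65, and the edgeR adjusted p was 0.220. Without knockout 1 the difference was 0.99 (edgeR adjusted p = 0.465).

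Shmt2 (chromosome 10, 127517123 to 127522444, minus strand) had 16.3, 14.35 and 16.4 CPM in the knockout-labelled libraries, against 22.7, 23.4 and 25.4 CPM in the heterozygous-labelled ones. All 3 knockout-labelled libraries were below all 3 others, and the spread within each group was small beside the gap. The fitted difference was -0.61 (log2, SE 0.134, 95% interval -0.92 to -0.29), which is 0.657 times the heterozygous level with an interval of 0.529 to 0.817. The edgeR adjusted p was 0.0830, short of the threshold. The gene ranked 378 by p among the 13300 tested, and Mthfd2 ranked 865.

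Mthfd2l, the isozyme of Mthfd2 that is the more usual form in adult tissues (chromosome 5, 90931117 to 91021368, plus strand), had 6.63, 6.28 and 8.86 CPM in the knockout-labelled libraries, against 8.96, 8.52 and 7.57 CPM in the heterozygous-labelled ones. Its groups overlapped, since knockout 3 lay above 2 of the heterozygous-labelled libraries. The difference was -0.20 (log2, SE 0.20, 95% interval -0.67 to 0.27, edgeR adjusted p = 0.832).

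Mthfd1l and Aldh1l2 were near the lower end of what the depth could resolve. Mthfd1l, the formate-releasing synthetase of mitochondria (chromosome 10, 3973118 to 4167081, plus strand), was read 17, 21 and 24 times in the knockout-labelled libraries, against 11, 14 and 26 times in the heterozygous-labelled ones. Aldh1l2, which oxidises formyl-tetrahydrofolate to CO2 and makes NADPH (chromosome 10, 83487450 to 83534140, minus strand), was read 24, 24 and 14 times in the knockout-labelled libraries, against 20, 14 and 23 times in the heterozygous-labelled ones. Both sets of groups overlapped. Exons of D10Wsu102e on the opposite strand cover 14.1% of the Aldh1l2 exons, so without strand in the counting some of these few reads could belong to either gene. The log2 difference was 0.10 for Mthfd1l (95% interval -0.80 to 1.0) and -0.09 for Aldh1l2 (95% interval -0.91 to 0.73). With these libraries neither a rise nor a fall within those bounds was detectable.

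The mitochondrial arm as a sum showed less difference than its leading members. Its 5 genes summed to 38.7, 29.5 and 30.9 CPM in the knockout-labelled libraries, against 37.0, 36.2 and 37.0 CPM in the heterozygous-labelled ones, and the groups overlapped because knockout 1 was the highest library. The makeup of that sum differed more. Shmt2 took 42.0%, 48.6% and 53.0% of the arm's reads in the knockout-labelled libraries, against 61.2%, 64.8% and 68.5% in the heterozygous-labelled ones. Mthfd2 took 36.1%, 24.2% and 12.7% in the knockout-labelled libraries, against 10.1%, 7.80% and 4.98% in the heterozygous-labelled ones. Neither share overlapped between the groups, and in knockout 1 the share of Mthfd2 came close to that of Shmt2. Both shares are computed from the reads of Shmt2 and Mthfd2 described above, so they are not a separate result, and they were not tested. These shares are of reads, and longer transcripts give more reads per molecule.

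**Figure D2:**
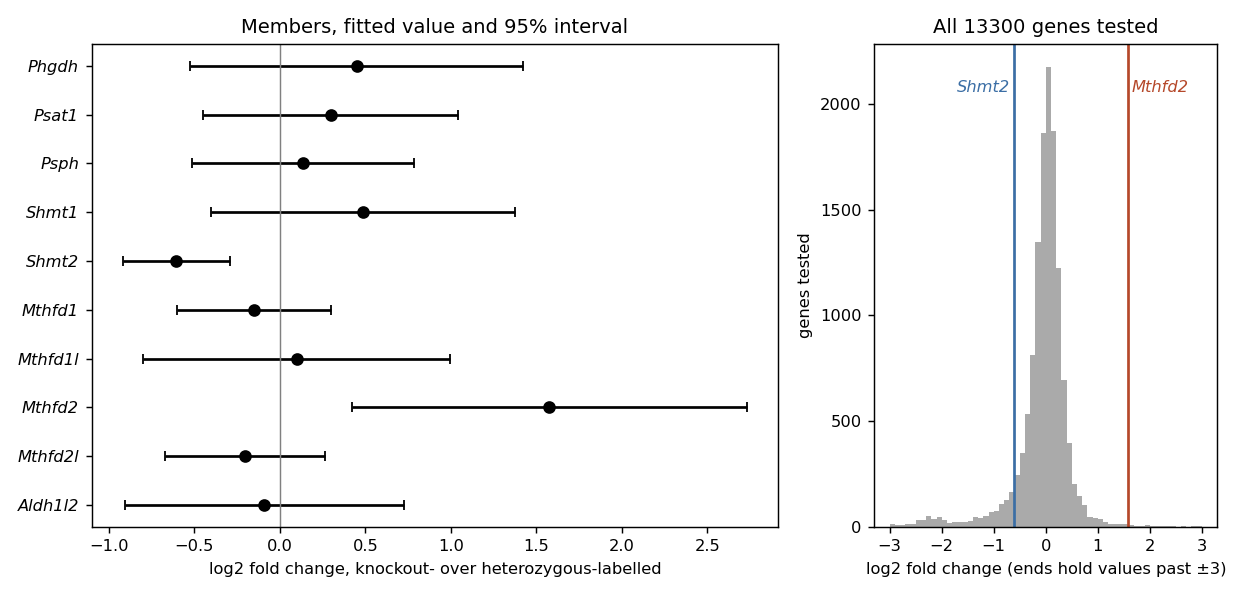
Fitted log2 difference, knockout-labelled over heterozygous-labelled (horizontal axis), with its 95% interval for each of the 10 enzymes. The intervals of Mthfd2 (0.42 to 2.73) and Shmt2 (-0.92 to -0.29) leave out 0, and those of the other 8 hold it.

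In the serine synthesis arm, Phgdh encodes the dehydrogenase that commits phosphoglycerate to serine (chromosome 3, 98313170 to 98339990, minus strand). It had 5.24, 10.5 and 13.6 CPM in the knockout-labelled libraries, against 4.32, 7.26 and 9.87 CPM in the heterozygous-labelled ones. The groups overlapped widely, and the difference was 0.45 (log2, SE 0.414, 95% interval -0.52 to 1.42, edgeR adjusted p = 0.811). The value is uncertain in another way, since 9 processed pseudogenes match the Phgdh transcript at 95.3% to 98.7% identity over at least 200 bases. Of these, 0 were in the count table. That table keeps a separate line for reads that match several places, 17.59% to 19.77% of the column totals in the knockout-labelled libraries. In the heterozygous-labelled ones this line was 21.76% to 23.85%, without overlap between the groups. Whether any of these reads was also counted in a gene is not given.

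Psat1, the aminotransferase of the next step (chromosome 19, 15904678 to 15947337, minus strand), had 6.85, 7.33 and 10.9 CPM in the knockout-labelled libraries, against 4.59, 6.15 and 9.64 CPM in the heterozygous-labelled ones. Its groups overlapped, with a log2 difference of 0.30 (SE 0.319, edgeR adjusted p = 0.856). Psph, the phosphatase that releases serine (chromosome 5, 129765558 to 129787449, minus strand), had 33.6, 40.05 and 27.3 CPM in the knockout-labelled libraries, against 42.9, 27.8 and 21.1 CPM in the heterozygous-labelled ones. The highest and the lowest library were both heterozygous-labelled, and the difference was 0.14 (SE 0.276, edgeR adjusted p = 0.940). Exons of Cct6a on the opposite strand cover 10.4% of the Psph exons, so without strand in the counting some reads of the 2 genes could not be told apart. The summed serine arm had 45.7, 57.9 and 51.8 CPM in the knockout-labelled libraries, against 51.8, 41.2 and 40.6 CPM in the heterozygous-labelled ones, and these overlapped.

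In the cytosolic arm, Shmt1, which carries out the same reaction as SHMT2 in the cytosol (chromosome 11, 60788104 to 60811718, minus strand), had 18.4, 20.4 and 35.65 CPM in the knockout-labelled libraries, against 20.5, 9.57 and 23.1 CPM in the heterozygous-labelled ones. The difference was 0.49 (log2, SE 0.379, 95% interval -0.40 to 1.38, edgeR adjusted p = 0.756), and the spread within each group was larger than the gap. Mthfd1, the trifunctional cytosolic enzyme that takes up formate (chromosome 12, 76255298 to 76319803, plus strand), had 32.5, 32.8 and 43.4 CPM in the knockout-labelled libraries, against 34.0, 37.2 and 49.6 CPM in the heterozygous-labelled ones. It differed by -0.15 (SE 0.193, 95% interval -0.60 to 0.30, edgeR adjusted p = 0.890). The 2 genes summed to 50.9 to 79.0 CPM in the knockout-labelled libraries and 46.8 to 72.65 CPM in the heterozygous-labelled ones, and the groups overlapped.

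Over the 10 enzymes, 6 fitted differences were above 0 and 4 below, with a median of 0.12 on the log2 scale against 0.02 over all tested genes. Shmt2 and Mthfd2, which act in sequence in the same compartment, lay on opposite sides. Of all tested genes, 8.09% had every knockout-labelled library above every heterozygous-labelled one, as Mthfd2 did, and 9.89% had every one below, as Shmt2 did.

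Levels were also set per kilobase of the joined exons of each gene's protein-coding transcripts. On that length Psph led in both groups, at a mean of 18.2 CPM per kb in the knockout-labelled libraries and 16.6 CPM per kb in the heterozygous-labelled ones. The order depends on the length chosen. Psph had 1845 bases and Mthfd1 3397 on this length, against 4329 and 4442 over the exons of all their transcripts, where Mthfd1 would lead. The places below hold for the first length only. Mthfd1 came next, with 10.7 CPM per kb in the knockout-labelled libraries and 11.85 CPM per kb in the heterozygous-labelled ones. Shmt2 had 6.79 CPM per kb in the knockout-labelled libraries and stood 4th, against 10.3 CPM per kb and the 3rd place in the heterozygous-labelled ones. Mthfd2 had 3.66 CPM per kb and the 6th place in the knockout-labelled libraries, against 1.23 CPM per kb and the 8th place in the heterozygous-labelled ones. Mthfd1l and Aldh1l2 were last in both groups, at 0.210 and 0.145 CPM per kb in the knockout-labelled libraries and 0.194 and 0.155 CPM per kb in the heterozygous-labelled ones.

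The places in between ran, in the knockout-labelled libraries, Shmt1 at 8.68 CPM per kb as the 3rd, Phgdh at 5.02 as the 5th, Psat1 at 2.80 as the 7th and Mthfd2l at 2.69 as the 8th. In the heterozygous-labelled libraries they ran Shmt1 at 6.19 CPM per kb as the 4th, Phgdh at 3.67 as the 5th, Mthfd2l at 3.10 as the 6th and Psat1 at 2.27 as the 7th. Few of these neighbours were separated by their libraries. In the knockout-labelled libraries only Psph over Mthfd1, Mthfd2l over Mthfd1l and Mthfd1l over Aldh1l2 did not overlap, and in the heterozygous-labelled ones only Shmt2 over Shmt1 and Mthfd2 over Mthfd1l.

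Ratios of paired enzymes within a library do not depend on how the libraries are scaled. The ratio of Mthfd2 to Mthfd2l reads was 2.11, 1.14 and 0.443 in the knockout-labelled libraries, against 0.417, 0.331 and 0.244 in the heterozygous-labelled ones. The groups did not overlap, though knockout 3 and heterozygous 1 were nearly equal. The difference was 1.65 on the log2 scale, with an exact permutation p of 0.1 (two-sided, the smallest that 3 against 3 allows) and 0.25 after adjustment over the 5 ratios computed. The ratio of Shmt2 to Shmt1 reads was 0.885, 0.702 and 0.459 in the knockout-labelled libraries, against 1.11, 2.45 and 1.10 in the heterozygous-labelled ones. The mitochondrial form had fewer reads than the cytosolic form in all 3 knockout-labelled libraries and more in all 3 others, with no correction for transcript length. This difference was -1.13 (log2, exact permutation p = 0.1, adjusted 0.25).

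The other 3 ratios overlapped between the groups. Phgdh over Shmt2 was 0.322, 0.734 and 0.828 in the knockout-labelled libraries, against 0.191, 0.310 and 0.389 in the heterozygous-labelled ones, a log2 difference of 1.03 (exact permutation p = 0.2, adjusted 0.25). Mthfd1l over Mthfd1 was 0.0234, 0.0250 and 0.0255 in the knockout-labelled libraries, against 0.0173, 0.0190 and 0.0242 in the heterozygous-labelled ones, a log2 difference of 0.29 (exact permutation p = 0.2, adjusted 0.25). Aldh1l2 over Aldh1l1, its cytosolic counterpart, differed by -0.16 (exact permutation p = 1), and this value had no stable sign. It was 0.61 without knockout 3, 0.05 without heterozygous 1 and -0.63 without knockout 1, and 0.32 in the RF-titled libraries against -1.14 in the RE-titled pair. With 3 libraries a group, none of the 5 ratios could have passed a threshold of 0.05.

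**Figure D3:**
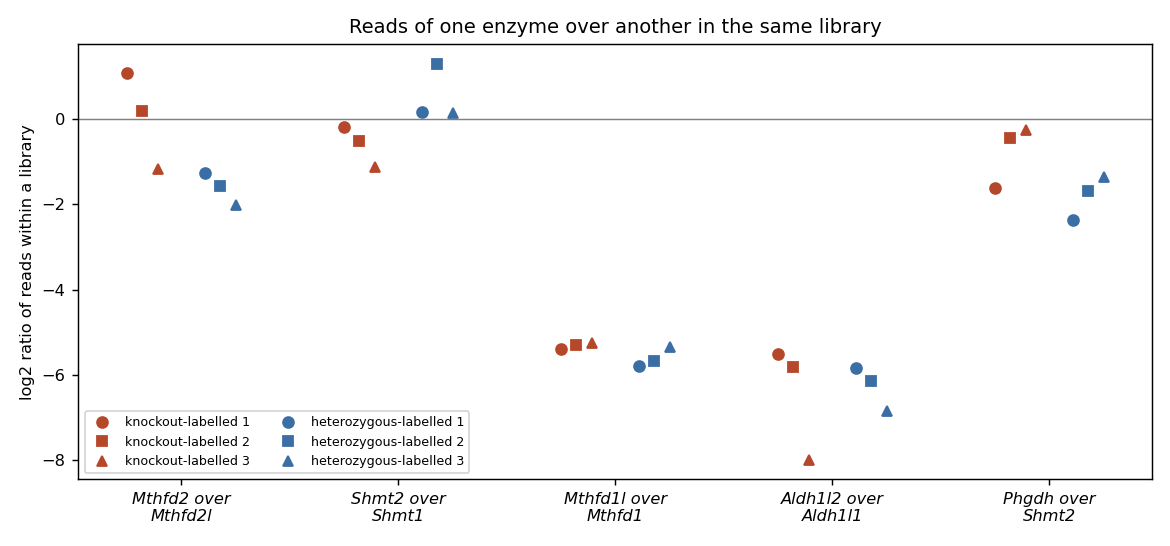
Log2 ratio of reads of paired enzymes within each library (vertical axis), with the knockout-labelled libraries left of the heterozygous-labelled ones for each of the 5 pairs. Mthfd2 over Mthfd2l is higher and Shmt2 over Shmt1 lower in all 3 knockout-labelled libraries than in any heterozygous-labelled one, by 1.65 and -1.13 between the means.

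The library titles carry the prefix RF in 4 libraries (1 and 2 of each genotype) or RE in 2 (library 3 of each genotype), whose meaning the labels do not give. By the ratio of mean CPM, Phgdh, Psat1, Psph, Shmt1, Mthfd1, Mthfd1l and Aldh1l2 differed more between the prefixes than between the genotypes. Psat1 averaged 10.3 CPM in the RE pair and 6.23 CPM in the RF libraries, and Psph 24.2 CPM in the RE pair and 36.1 CPM in the RF libraries. Shmt1 averaged 29.4 CPM in the RE pair and 17.2 CPM in the RF libraries, and Phgdh 11.7 CPM in the RE pair and 6.84 CPM in the RF libraries. Mthfd2 averaged 2.88 CPM in the RE pair and 6.915 CPM in the RF libraries, a smaller ratio than that between the genotypes. Within the prefixes the directions of the leading enzymes were kept. Mthfd2 differed by 0.91 (log2 with 0.5 CPM added) between the knockout and heterozygous libraries of the RE pair and by 1.68 in the RF libraries (edgeR adjusted p = 0.162). Shmt2 differed by -0.62 in the RE pair and by -0.59 in the RF libraries (edgeR adjusted p = 0.181). Mthfd2l, in contrast, differed by 0.21 in the RE pair and by -0.44 in the RF libraries, and Aldh1l2 by -0.45 in the RE pair and 0.18 in the RF libraries. The RE pair has 1 library per genotype and no test.

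The call on Shmt2 and Mthfd2 depended on the model. With the title prefix as a covariate, edgeR called Shmt2 (adjusted p = 0.0476) among 2.34% of all tested genes, and Mthfd2 came to 1.5 (adjusted p = 0.0555). DESeq2 called Shmt2 (adjusted p = 0.00673) and Mthfd2 (adjusted p = 0.0248), where it called 5.78% of all genes. At an adjusted edgeR p of 0.1, Shmt2 passed with 3.76% of all genes. With a score of the 22 muscle markers (their average log2 CPM in each library) as a covariate, Mthfd2 came to 1.72 and Shmt2 to -0.42, both at an edgeR adjusted p of 0.9996 in a fit that called 0 of the 13300 genes. The score was 7.02 to 7.88 in the knockout-labelled libraries and 8.56 to 10.2 in the heterozygous-labelled ones. As it separates the groups, the fit with it cannot tell muscle RNA from genotype. In that fit 0 of the 10 enzymes had an unadjusted p under 0.05, and several values moved far from those reported. Phgdh came to 0.98, Psat1 to 1.07, Mthfd1l to 0.82, Psph to -0.76 and Mthfd2l to -0.56. Shmt2 and Mthfd2 kept their sign in 18 of 18 alternatives, Shmt2 between -0.66 and -0.42 and Mthfd2 between 0.99 and 1.91. This is a weak check of sign. The adjusted p of 0.1 reuses the reported fit, and leaving a library out of groups that do not overlap could hardly turn it.

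**Figure D4:**
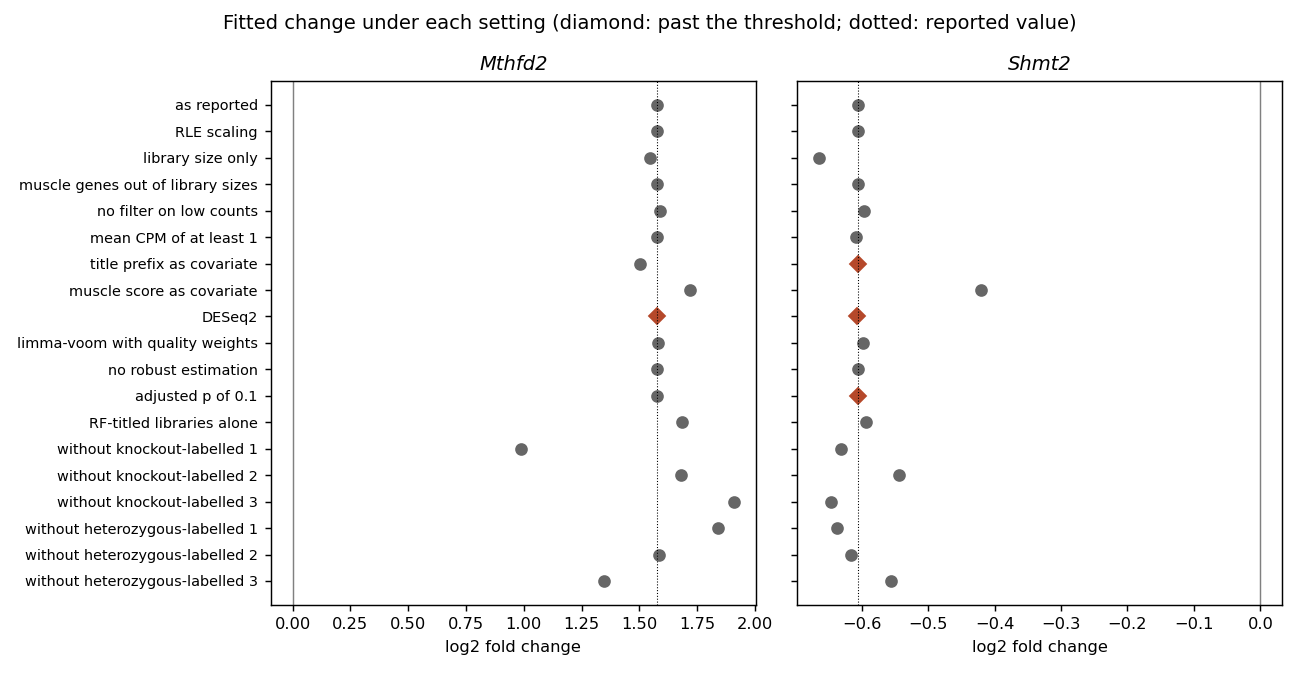
Fitted log2 difference, knockout-labelled over heterozygous-labelled (horizontal axes, scaled separately), of Mthfd2 and Shmt2 as reported and under 18 alternatives; diamonds mark fits in which the gene passed the threshold. Mthfd2 ranges from 0.99 to 1.91 and Shmt2 from -0.66 to -0.42, so neither crosses 0.

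Genes that surround the pathway were read from lists by role, which were also chosen with earlier results of these data known. In folate supply and handling, 12 of 14 listed genes were tested and 0 called, with a median log2 difference of 0.11. The gene with the smallest p there was Mtfmt, which uses formyl-tetrahydrofolate to formylate the initiator methionine tRNA of mitochondria. Mtfmt had 6.09, 7.76 and 8.30 CPM in the knockout-labelled libraries, against 11.4, 11.6 and 11.6 CPM in the heterozygous-labelled ones. These groups did not overlap, and the difference was -0.64 (log2, SE 0.178, edgeR adjusted p = 0.153). The folate carriers Slc19a1 and Slc46a1 differed by 0.54 and 0.27 (edgeR adjusted p = 0.684 and 0.797). Ftcd was listed at 0 reads in all 6 libraries.

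Among the genes that spend the carbon, 9 of 9 purine and thymidylate genes were tested and 0 called, with a median of -0.12. The lowest p values were those of Adsl at -0.38, Ppat at -0.31 and Prps1 at -0.16 on the log2 scale (edgeR adjusted p = 0.302, 0.475 and 0.825). Adsl and Ppat encode enzymes of purine synthesis, and Prps1 makes the ribose phosphate it starts from. Of the methionine cycle, 10 of 12 genes were tested and 0 called, with a median of -0.05. Nnmt, a methyltransferase that draws on the cycle, differed by -0.88, Mtrr by -0.41 and Mtr, the methionine synthase, by -0.30 (edgeR adjusted p = 0.440, 0.517 and 0.735).

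The glycine cleavage and choline oxidation genes, which feed carbon into the same mitochondrial folate pool, were the only pathway list with calls. Of 9 listed genes, 7 were tested, 2 fell and 0 rose, and all 7 fitted differences were below 0, with a median of -0.29, where 78 of the 13300 genes were called in all. Chdh, the mitochondrial choline dehydrogenase, had 22.4, 33.0 and 22.0 CPM in the knockout-labelled libraries, against 84.1, 67.1 and 116 CPM in the heterozygous-labelled ones (log2 -1.79, SE 0.254, edgeR adjusted p = 0.0417). Dld, the dehydrogenase subunit shared by the glycine cleavage system and the keto acid dehydrogenases, had 576, 638 and 709 CPM in the knockout-labelled libraries, against 1325, 1185 and 1250 CPM in the heterozygous-labelled ones (log2 -0.97, SE 0.15, edgeR adjusted p = 0.0475). In both genes every knockout-labelled library lay below every other. Neither call held in the fit with the muscle score or in the fits without knockout 1, knockout 2 or heterozygous 2, each of which called 0 genes. Both held with the title prefix as a covariate, DESeq2 and limma-voom, which kept all 78 reported calls. Some other fits kept 68 to 74 of the 78, and the fit without heterozygous 3 kept 7. Whether Chdh and Dld were among those kept is not given here. The other glycine cleavage genes, Gcsh, Amt and Gldc, differed by -0.08, -0.11 and -0.39 (edgeR adjusted p = 0.940, 0.941 and 0.926). The groups overlapped for each of them, and Gldc was read only 4 to 18 times. Dmgdh was listed at 0 reads throughout.

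Of serine transport and use, 14 of 16 genes were tested and 0 called, with a median of 0.10. The mitochondrial carrier Sfxn2 differed by -1.08, Cth of transsulfuration by -1.12 and Sptlc1 of sphingolipid synthesis by 0.19 (edgeR adjusted p = 0.522, 0.590 and 0.698). Of glyoxylate, formaldehyde and phosphoglycerate metabolism, 6 of 8 were tested and 0 called, with a median of -0.02. Esd, which releases formate from S-formylglutathione, differed by 0.37, Pgk1 by 0.30 and Pgam1 by -0.23 (edgeR adjusted p = 0.266, 0.396 and 0.581). The last pair are glycolytic enzymes on either side of phosphoglycerate.

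ATF4 and its known targets outside the 10 enzymes were mostly higher without passing the test. Of 21 listed genes, 19 were tested and 0 called, 16 fitted differences were above 0, and the median was 0.39 against 0.02 over all tested genes. The 3 below 0 were Chac1 at -0.43, Vldlr at -0.37 and Slc7a5 at -0.23 (edgeR adjusted p = 0.860, 0.433 and 0.943). The groups did not overlap for 4 of the 19, 3 higher and 1 lower (Vldlr) in the knockout-labelled libraries. That held for 18% of all tested genes. Atf4 had 154, 204 and 227 CPM in the knockout-labelled libraries, against 118, 153 and 125 CPM in the heterozygous-labelled ones (log2 0.56, edgeR adjusted p = 0.242). These groups did not overlap, but knockout 1 and heterozygous 2 were nearly equal. Trib3, a pseudokinase induced by ATF4, had 6.54, 11.7 and 11.4 CPM in the knockout-labelled libraries, against 4.21, 5.69 and 6.04 CPM in the heterozygous-labelled ones (log2 0.90, edgeR adjusted p = 0.213). Eif4ebp1, which restrains cap-dependent translation, differed by 0.39 (edgeR adjusted p = 0.217). Of the enzymes known as ATF4 targets, Phgdh, Psat1 and Mthfd2 lay above 0, at 0.45, 0.30 and 1.58, and Shmt2 and Aldh1l2 below, at -0.61 and -0.09.

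**Figure D5:**
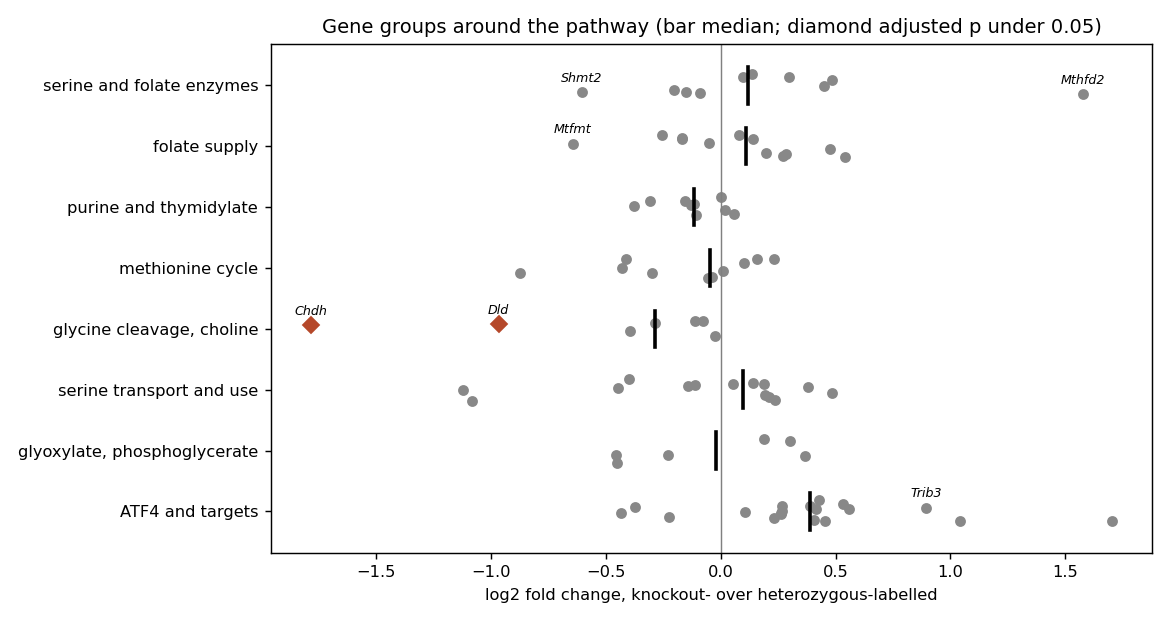
Fitted log2 difference, knockout-labelled over heterozygous-labelled, for each tested gene of the enzymes and of the surrounding gene lists, with the median of each list. The ATF4 list has a median of 0.39 and the glycine and choline list one of -0.29, and the 2 genes past the threshold, Chdh and Dld, are in the glycine and choline list.

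Markers of other cells were set beside the enzymes. Genes of dividing cells, in which Mthfd2 is known to be high, summed to 45.8 to 48.3 CPM in the knockout-labelled libraries and 40.7 to 44.9 CPM in the heterozygous-labelled ones, without overlap. Most of that sum was Pcna, a replication clamp also used in DNA repair, with 30.4, 33.6 and 34.9 CPM in the knockout-labelled libraries, against 28.7, 29.8 and 26.4 CPM in the heterozygous-labelled ones. Without Pcna the other 11 genes summed to 17.9, 14.35 and 10.8 CPM in the knockout-labelled libraries, against 16.3, 14.4 and 14.3 CPM in the heterozygous-labelled ones, and these overlapped. Of the 12 genes 10 were tested and 0 called, with a median log2 difference of -0.03. Macrophage markers summed to 142 to 254 CPM in the knockout-labelled libraries and 96.0 to 245 CPM in the heterozygous-labelled ones, with 9 tested, 0 called and a median of 0.24. Endothelial markers summed to 698 to 728 CPM in the knockout-labelled libraries and 598 to 749 CPM in the heterozygous-labelled ones. White adipocyte markers summed to 119 to 485 CPM in the knockout-labelled libraries and 108 to 289 CPM in the heterozygous-labelled ones, with Hoxc9 at 0 reads in some libraries. Lymphocyte and liver markers had 2 tested genes each, and among the liver markers Fgb was at 0 in all 6 libraries. The part of dividing cells, and of the muscle RNA that was lower in all 3 knockout-labelled libraries, in the values of Mthfd2 and Shmt2 was not tested beyond the fit with the muscle score. That fit cannot tell muscle RNA from genotype.

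The genes most like Mthfd2 over the 6 libraries, by the root mean square difference of centred log2(CPM + 0.5) profiles, were Srxn1 at 0.278, Fabp5 at 0.290 and Litaf at 0.304, against a median of 0.871 over the 11805 genes compared. For Shmt2 they were Thnsl1 at 0.070, Ptcd3 at 0.070 and Bcl9l at 0.075, against a median of 0.391. The likeness is over 6 libraries and is given as a description.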

How the data were processed

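Total RNA of brown adipose tissue, frozen and pulverised, came from separate mice, 3 of each genotype, per the labels' protocols. Raw read counts per gene symbol, with a column for each library, were deposited by the authors. Tools listed, without roles, in the submitters' processing notes are STAR 2.7.2b, Bowtie2 2.3.4.3, HTSeq, SAMtools 1.9, edgeR and Trim Galore, with the build mm10. The sources used here do not give the annotation, the strand setting or the full rule for multiple matches. The lines naming no gene include a line for reads with multiple matches. The 5 lines naming no gene, 41.7% to 49.0% of the column totals in the knockout-labelled libraries and 51.65% to 56.1% in the heterozygous-labelled ones, were left out.

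All genes were fitted with edgeR 4.0.16 (R 4.3.3): TMM scaling, filterByExpr (minimum count 10, minimum total 15), robust quasi-likelihood F test on genotype, Benjamini-Hochberg adjustment over 13300 genes at 0.05. The biological coefficient of variation was 24.7%. CPM use TMM-scaled library sizes. Ratios used counts plus 0.5. Every pair of libraries differed by more than sampling noise (chi-square over its degrees of freedom 39.3 to 304). Coordinates and exon lengths are from GENCODE on GRCm38, the assembly mm10 names. Levels per kilobase used the joined exons of protein-coding transcripts. Near-identical copies were found with BLAST 2.17.0. The fit was tested on simulated counts.

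Named genes were the 10 enzymes, the targeted gene, called genes of each list, for pathway lists without any up to 3 with the smallest p, and the 3 nearest profiles of the most positive and most negative enzyme. The members and lists were chosen with earlier results of these data known; CCAAT and GCGCATGC were added after the promoter windows were read, and the sum without Pcna after its values were seen. A comparison of the proteins was not run. Alternatives were RLE scaling, library size only, muscle genes out of library sizes, no filter, a minimum mean CPM of 1, leaving out each library, the RF libraries alone, title prefix or muscle score as covariate, DESeq2 1.42.0, limma-voom (limma 3.58.1), no robust estimation and an adjusted p of 0.1.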

Additional observations from a re-analysis of the deposited data

How the results depend on the processing

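The number of enzymes called lower was 0 as reported and 1 (Shmt2) with the title prefix as a covariate, with DESeq2 and at an adjusted p of 0.1, and the number called higher was 0 as reported and 1 (Mthfd2) with DESeq2. The log2 ratio of Mthfd1l over Mthfd1 differed by 0.29 over all libraries and by 0.08 in the RE pair alone. That of Aldh1l2 over Aldh1l1 was -0.16 over all libraries, 0.32 in the RF libraries alone and -0.63 to 0.61 with 1 library left out. The other ratios and the median over the enzymes kept their direction. The mean CPM filter left Mthfd1l and Aldh1l2 out.

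Over all genes, 78 were called as reported, 311 with the title prefix as a covariate, 768 with DESeq2, 194 with limma-voom, 500 at an adjusted p of 0.1, 132 in the RF libraries alone and 0 with the muscle score. Leaving out 1 library gave 0 calls without knockout 1, knockout 2 or heterozygous 2, 8 without heterozygous 3, 111 without knockout 3 and 400 without heterozygous 1. The sign held in 18 of 18 alternatives, of which the adjusted p of 0.1 reuses the reported fit, for Phgdh, Psat1, Shmt2, Mthfd2 and Mthfd2l. It turned in some for Psph (15 of 18 kept), Shmt1 (17 of 18), Mthfd1 (16 of 18), Mthfd1l (14 of 17) and Aldh1l2 (11 of 17), of which 0 were called in any. With the muscle score Psph came to -0.76, Shmt1 to -0.046, Mthfd1 to 0.18 and Aldh1l2 to 0.026, and Aldh1l2 came to 0.08 with limma-voom and 0.18 in the RF libraries alone. With 1 library left out, Psph ran from -0.071 to 0.46, Mthfd1 from -0.31 to 0.027, Mthfd1l from -0.091 to 0.47 and Aldh1l2 from -0.26 to 0.08. The causes were not tested. Mthfd1l and Aldh1l2 had the fewest reads, but their SE of 0.38 and 0.35 were below those of Mthfd2 at 0.49 and Phgdh at 0.41. No paired analysis was possible because the labels carry no replicate numbers that pair the mice.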
